A study of Homo sapiens with 2 samples.

Results

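Metallothioneins are small cysteine-rich proteins that bind zinc, copper and cadmium, and their genes respond to a rise in free zinc. Here 6 metallothionein genes (MT1E, MT1F, MT1G, MT1H, MT1X and MT2A), the zinc sensor gene MTF1 and the zinc exporter gene SLC30A1 were followed in L-540, an established Hodgkin lymphoma cell line. The genes were chosen with earlier results of these data known. Probe sets were taken by gene symbol, as every probe set that the platform annotation assigns to 1 of these 8 genes. This gave 13 of the 22283 probe sets on the array, and 8 of the 11963 genes with a probe set of a single symbol. The study held 2 groups, L-540 cells left untreated and L-540 cells treated with vorinostat, an inhibitor of histone deacetylases. Each group was 1 Affymetrix HG_U133A array of total RNA, both groups were grown under standard conditions, and the labels named neither dose nor duration of treatment. With 1 array per group there was no replicate check and no test was possible, so each ratio below compares this pair of cultures. In RNA from a whole culture, a change in the number of cells that express a gene and a change in RNA per cell cannot be told apart.

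MTF1 is a zinc finger transcription factor that is activated when it binds zinc. It then occupies metal response elements, short motifs that lie in several copies in front of metallothionein genes and also in front of SLC30A1. SLC30A1 moves zinc out of the cell across the plasma membrane, and metallothioneins hold it in the cytosol, so both lower free zinc. In lymphoid cells metallothioneins are also known to respond to glucocorticoids and to oxidative stress.

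The metal response element core was searched in the 250 bases before each gene's annotated start, taken from RefSeq (assembly GRCh38.p14), as TGCACNC or TGCGCNC on both strands. Windows were matched by symbol for 5 of the 8 members, MT1H, MT1X, MT2A, SLC30A1 and MTF1. The windows of the metallothioneins and of SLC30A1 are shown because they carry the motif through which the zinc sensor is known to reach its targets. They run 5′ to 3′ along the gene's strand, end at the base before the annotated start, and have each match in capitals.
MT1H (chr16:56669564-56669813, plus strand): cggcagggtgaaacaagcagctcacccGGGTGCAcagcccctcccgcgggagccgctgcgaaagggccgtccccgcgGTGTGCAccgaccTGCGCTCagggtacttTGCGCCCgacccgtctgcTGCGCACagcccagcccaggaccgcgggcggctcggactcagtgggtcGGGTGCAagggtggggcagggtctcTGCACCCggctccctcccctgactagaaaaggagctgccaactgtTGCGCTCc
MT2A (chr16:56608334-56608583, plus strand): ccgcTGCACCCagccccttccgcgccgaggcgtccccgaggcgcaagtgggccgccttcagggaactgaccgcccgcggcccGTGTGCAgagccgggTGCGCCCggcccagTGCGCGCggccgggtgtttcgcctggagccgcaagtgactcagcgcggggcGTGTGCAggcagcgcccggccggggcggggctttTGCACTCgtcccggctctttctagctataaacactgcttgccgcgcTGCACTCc
MT1X (chr16:56682220-56682469, plus strand): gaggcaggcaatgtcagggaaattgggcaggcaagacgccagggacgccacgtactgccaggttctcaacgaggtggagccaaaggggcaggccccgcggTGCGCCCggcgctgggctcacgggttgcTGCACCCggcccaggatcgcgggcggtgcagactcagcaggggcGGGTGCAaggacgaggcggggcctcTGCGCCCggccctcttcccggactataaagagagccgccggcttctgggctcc
SLC30A1 (chr1:211579162-211579411, minus strand): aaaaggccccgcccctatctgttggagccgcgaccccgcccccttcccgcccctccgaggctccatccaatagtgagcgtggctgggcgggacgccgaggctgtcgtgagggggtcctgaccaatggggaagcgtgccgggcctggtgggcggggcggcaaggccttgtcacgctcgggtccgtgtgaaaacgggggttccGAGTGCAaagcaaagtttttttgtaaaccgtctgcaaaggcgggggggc

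MT1H had 8 matches, MT2A 7 and MT1X 4, with 0 overlaps between matches in each. At least 1 match was found in 24.8% of 35116 such windows over all genes, at least as many as in MT1X in 0.37%, as many as in MT2A in 0.0313% and as many as in MT1H in 0.0171%. The windows over all genes were not matched for G and C content, which was 73.2% in MT2A, 70.4% in MT1H and 70% in MT1X. Its part in these percentages was not tested. The 3 metallothionein windows shared part of their layout. A match on the gene's own strand lay at -53 to -47 from the start in MT1H and in MT1X and at -54 to -48 in MT2A. A match on the other strand lay at -78 to -72 in MT1H and MT1X and at -88 to -82 in MT2A. MT1H and MT2A had a further match at -8 to -2. SLC30A1 had 1 match, on the other strand at -49 to -43, and MTF1 had 0, so these letters are not in its window. A match to so short a motif is a description of the sequence and does not show that the factor binds there.

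**Figure D1:**
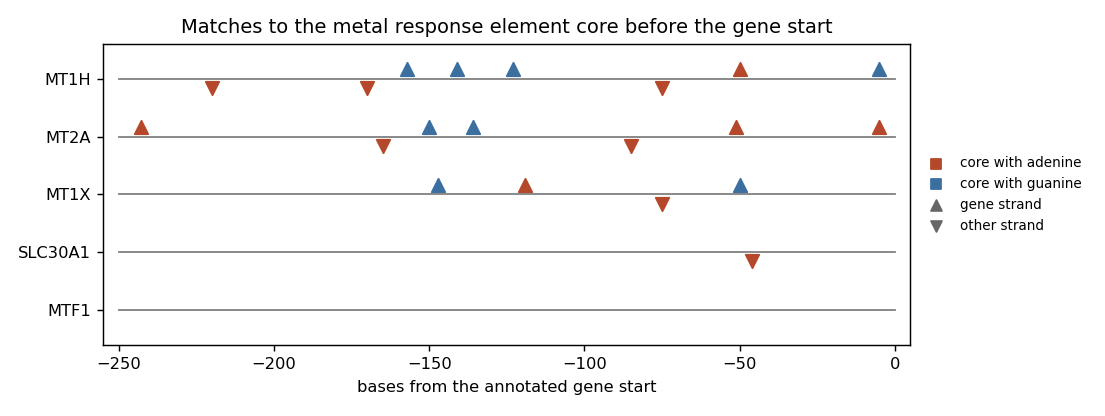
Positions of matches to the metal response element core in the 250 bases before the annotated start of 5 member genes, in bases from the start. Upward triangles are on the gene's strand and downward ones on the other strand, and colour gives the form of the core. MT1H, MT2A and MT1X hold 8, 7 and 4 matches, SLC30A1 holds 1 and MTF1 holds 0.

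Values are MAS5 signals, linear intensities of a probe set. Signals under a floor of 68.9, the 40th percentile over both arrays, were set to the floor, and a gene under it on both arrays was not measured. Of the 13 member probe sets 12 lay above the floor on both arrays. The exception was the MT1G probe set 210472_at, with signals of 33.1 untreated and 46.1 treated. It is also the 1 metallothionein probe set whose name has no letter before _at, so each measured metallothionein value rests on a probe set whose name ends in _x_at, the suffix for probes that can also bind other transcripts. Those values may therefore not be separate readings of separate genes. The probe sets of MTF1 both end in _s_at, which marks probes shared by several transcripts, and that of SLC30A1 (212907_at) has neither suffix.

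All 8 members had a higher signal in the treated array on their brightest probe set, where 3894 of the 8277 measured genes had. MT1F turned to a log2 ratio of -0.01 when the median over its probe sets was taken. SLC30A1 was the 1 member at least 2-fold higher, where 3.77% of the 8277 measured genes were. A further 4 members, MTF1, MT1H, MT2A and MT1X, were at least 1.5-fold higher, which made 5 of 8, where 12.7% of all measured genes were. MT1X only just passed 1.5-fold. On these probe sets none of the 8 lay below a log2 ratio of 0, where 4383 of the 8277 measured genes did. Of measured genes, 5.12% were past 2-fold lower and 15.5% past 1.5-fold lower. Among 8 genes a count of 0 lies near such shares. The remaining MT1G, MT1E and MT1F lay within 1.5-fold. The median log2 ratio was 0.71 over the 8 members and 0.51 over the 6 metallothioneins, beside -0.04 over all measured genes. The members were chosen with earlier results of these data known, so these counts and medians are a description and no test. Of the measured metallothioneins outside this choice, MT3 and MT4 were lower and MT1HL1 was higher. After scaling both arrays to equal medians the median of all genes shifted to 0.08 and MTF1 and MT1H also passed 2-fold, which made 3 members, while the members' median stood 0.76 above that of all genes, against 0.75 as reported. That scaling also turned the split of all 2-fold calls, from 312 higher and 424 lower to 459 higher and 321 lower.

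The exporter SLC30A1 had a signal of 769 in untreated and 1840 in treated cells, a ratio of 2.39-fold (log2 ratio 1.26). Of 8277 measured genes, 133 (1.61%) had a higher ratio. Over the 10 alternative ways of processing its log2 ratio ran from 1.22 to 1.39. The 3 other measured genes with the most similar pair of signals over the 2 arrays were MYLIP, which encodes a ubiquitin ligase (760 and 1849), SNAPC1, a subunit of a small nuclear RNA gene activator (768 and 1782), and LCMT1, a methyltransferase (744 and 1752). Their distances from SLC30A1 were 0.019, 0.047 and 0.085 log2 units. A pattern over 2 arrays is a single ratio and a level, so many genes come close.

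The sensor MTF1 had 2 probe sets. Signals were 499 untreated and 916 treated on 205323_s_at (1.84-fold higher) and 342 and 688 on 205322_s_at (2.01-fold higher). Both were higher in treated cells and they lay on either side of 2-fold, 0.13 log2 units apart. For scale, over the 1579 genes with exactly 2 probe sets measured above the floor on each array, the median difference between them was 0.27 log2 units, and the 90th percentile was 0.73. This spread is between probe sets on the same pair of arrays and does not cover variation between cultures.

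MT2A, the member of the family usually expressed in most cell types, had signals of 4897 untreated and 8716 treated on 212185_x_at, 1.78-fold higher. Among the 223 other measured genes with a mean log2 signal at least as high as that of MT2A, 2 had a higher ratio. Over all levels 510 genes (6.16%) did. At this end of the signal range, ratios of most genes lay close to 0, as the plot of ratio against signal shows. The same count among genes at least as bright was 20 of 1973 for SLC30A1, 41 of 1075 for MT1H and 184 of 3200 for MTF1. For MT1X it was 61 of 799, for MT1G 478 of 2209, for MT1E 1044 of 3466 and for MT1F 1375 of 3900.

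**Figure D2:**
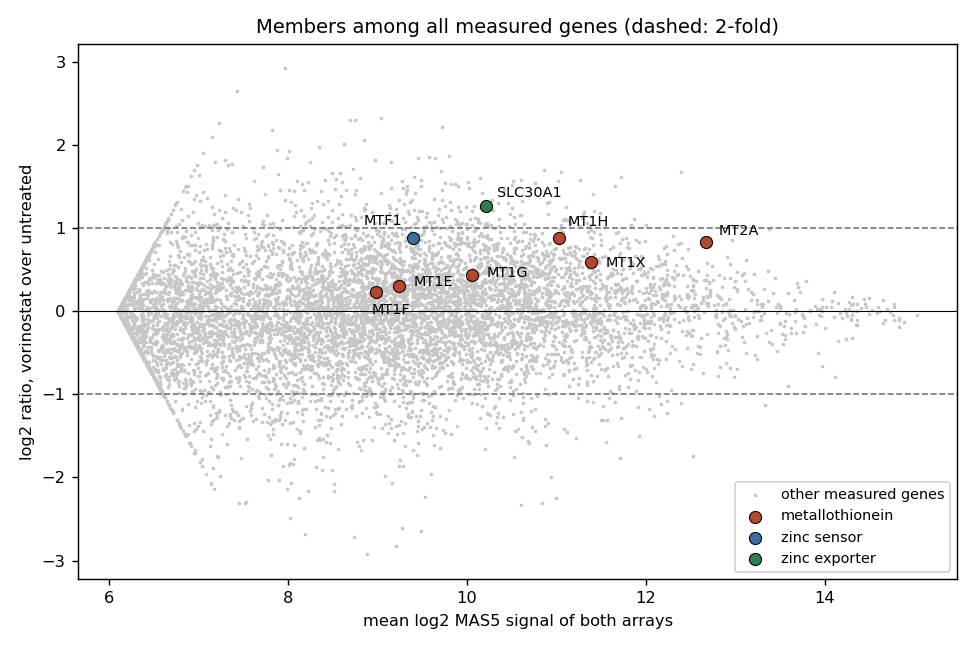
Log2 ratio, vorinostat over untreated, against the mean log2 signal of both arrays, 1 point per measured gene (8277 genes) with the 8 members in colour by role. On these brightest probe sets all members lie above 0 (MT1F at -0.01 by the median over its probe sets). SLC30A1 lies above the dashed 2-fold line, and MT2A stands near the upper edge of genes as bright as itself. Of 3900 other genes at least as bright as MT1F, 1375 had a higher ratio.

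The MT1 genes encode near-identical proteins that differ from MT2A in few residues and are often induced together by metals. MT1H went from 1538 to 2821 on 206461_x_at, 1.83-fold higher and the highest ratio among the metallothioneins. MT1X had 2187 and 3299 on 208581_x_at (1.51-fold higher) and 1443 and 2297 on 204326_x_at (1.59-fold higher), and its probe sets were 0.08 log2 units apart. MT1G had 916 and 1239 on 204745_x_at, 1.35-fold higher. These 3 genes were higher in treated cells on each measured probe set.

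MT1E and MT1F were less clear. MT1E had 546 and 673 on 216336_x_at (1.23-fold higher) and 408 and 415 on 212859_x_at (1.02-fold higher). MT1F had 467 and 547 on 217165_x_at, 1.17-fold higher, but 236 and 200 on 213629_x_at, 1.18-fold lower in treated cells. Its probe sets thus disagreed in direction, by 0.47 log2 units, and the median over them was a log2 ratio of -0.01. On their brightest probe sets the log2 ratios were 0.23 for MT1F and 0.30 for MT1E. For scale, the 18 hybridisation spike-ins had a mean log2 ratio of 0.06 and an SD over probe sets of 0.17. Over all measured genes the SD of the log2 ratio was 0.59. The spike-in SD holds no variation between cultures, so it gives no cut for a difference. With 1 array per group, neither these 2 genes nor any other member could be set apart from no difference.

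**Figure D3:**
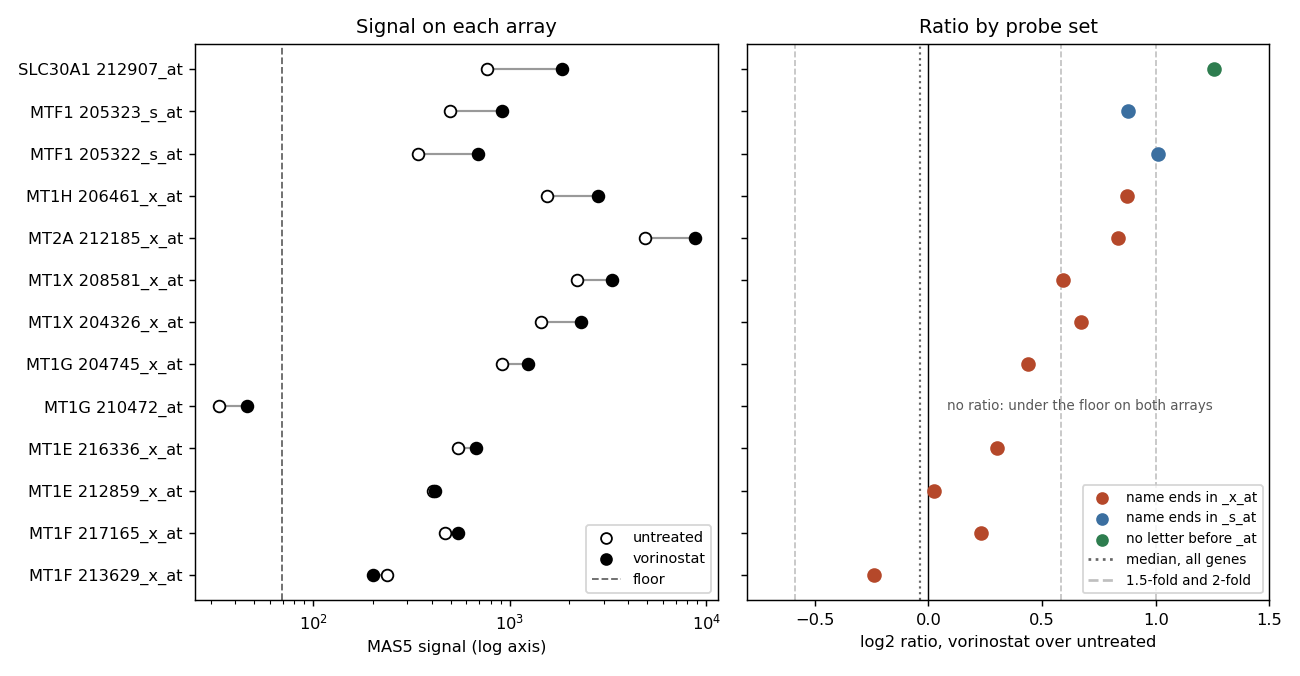
Signal of each of the 13 member probe sets on both arrays (left, log axis, dashed line at the floor) and its log2 ratio, vorinostat over untreated (right, coloured by the suffix of the probe set name). Of 12 measured probe sets 11 were higher in the treated array, and 213629_x_at of MT1F was lower. Over the whole array 6541 of 14194 measured probe sets were higher.

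By ratio the order of the members was SLC30A1, MTF1, MT1H, MT2A, MT1X, MT1G, MT1E and MT1F. MTF1, MT1H and MT2A had log2 ratios of 0.88, 0.87 and 0.83, and MT1X, MT1G, MT1E and MT1F had 0.59, 0.44, 0.30 and 0.23. Each step between neighbours from MTF1 down was smaller than the median difference of 0.27 between 2 probe sets of a gene, so that this part of the order is not resolved. Only the step from SLC30A1 to MTF1 was larger on these probe sets. On its other probe set MTF1 had a log2 ratio of 1.01, nearer to the 1.26 of SLC30A1. The difference between probe sets does not cover variation between cultures, so this step was not tested either.

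Across the 9 measured metallothionein probe sets, brighter ones had higher ratios, with a Spearman correlation of 0.92 between log2 ratio and signal in untreated cells. Over all 14194 measured probe sets this correlation was -0.05. The 9 probe sets share both arrays and may share target sequence, so the points are not independent and this is a description. The part of shared sequence or of signal level in the order of the metallothioneins was not tested.

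Several other metallothioneins lie among and beside the members on chromosome 16. The order there is MT4, MT3, MT2A, MT1E, MT1M, MT1F, MT1G, MT1H and MT1X, with pseudogenes and other MT1 genes between. Of 13 further metallothionein genes and pseudogenes listed, 4 had a probe set of their own and 3 were measured. MT1HL1, an MT1-like sequence that is not in this stretch of chromosome 16, had 1236 and 1951 on 211456_x_at, 1.58-fold higher. That probe set can bind other transcripts. MT3, known best from brain, had 125 and 90.1 on 205970_at, 1.39-fold lower. MT4, known from squamous epithelium, had 93.6 and 11.4 and so was under the floor in treated cells, at least 1.36-fold lower. MT1M was under the floor on both arrays, with 8.31 and 8.64. MT3 and MT4 were thus lower where the MT1 and MT2A probe sets were mostly higher, but on dim probe sets near the floor of 68.9. With the floor at the 60th percentile neither was measured, so this contrast is weak.

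The genes around the cluster were mostly not higher. Of 13 listed genes beside it, MT3 and MT4 included, 9 were on the array and 8 measured. Of these 2 lay above and 6 below a log2 ratio of 0. MT4 and GNAO1 were under the floor in treated cells, so their ratios are bounds and can be larger, and the other 6 lay within 1.5-fold. The median log2 ratio with these bounds was -0.27, which a floor at the 60th percentile turned to 0.02. The nucleoporin gene NUP93, next to the MT1X end, was closest with 1170 and 1745 (1.49-fold higher). NUDT21, a polyadenylation factor gene on the MT4 side, had 2742 and 2815 on its brightest probe set (1.03-fold higher) and was 1.51-fold higher on its other one. OGFOD1, a ribosomal protein hydroxylase gene on the same side, had 459.7 and 458.9. HERPUD1, an endoplasmic reticulum stress gene, was 1.27-fold lower and GNAO1, a G protein gene, was at least 1.44-fold lower, under the floor in treated cells.

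The other zinc transporters divided in direction. Of 9 further SLC30A genes, listed as zinc exporters by family alone, 6 were on the array and 2 measured. SLC30A5, a transporter of the early secretory pathway, had 511 and 653 (1.28-fold higher) on 218989_x_at but was 1.51-fold lower on 220181_x_at, and SLC30A9 had 888 and 916 (1.03-fold higher). SLC30A3, SLC30A4, SLC30A6 and SLC30A10 were under the floor on both arrays. SLC30A1 was thus the 1 measured SLC30A gene past 1.5-fold on its brightest probe set.

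Of 14 SLC39A genes, which bring zinc into the cytosol, 8 were on the array and 7 measured, with 3 above and 4 below a log2 ratio of 0 and a median of -0.02. SLC39A6 went from 3588 to 5687 on 202088_at (1.58-fold higher) and from 2504 to 4811 on 202089_s_at (1.92-fold higher). SLC39A14 went from 3585 to 4780 (1.33-fold higher). SLC39A4, the intestinal zinc importer gene, went from 239 to 153 (1.56-fold lower), and SLC39A7, which releases zinc from the endoplasmic reticulum, from 149.5 to 119.9 (1.25-fold lower). None of the 7 was 2-fold apart on its brightest probe set.

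Copper handling genes had the next highest median after the members, except with the floor at the 60th percentile, where the 1 remaining other metallothionein, MT1HL1, stood above them (0.66 against 0.47). Of 11 listed, 8 were on the array and all 8 were measured. Of these 7 lay above a log2 ratio of 0 and 5 were at least 1.5-fold higher, with a median of 0.63. Over all measured genes 3894 of 8277 lay above 0 and 12.7% were at least 1.5-fold higher. The 6 metallothioneins alone, without MTF1 and SLC30A1, had a median of 0.51, below that of the copper genes. With the floor at the 60th percentile it lay above theirs (0.51 against 0.47). The copper exporter gene ATP7A had 158 and 266 (1.68-fold higher) and 106 and 257 on its second probe set (2.43-fold higher). The importer gene SLC31A1 had 123 and 202 (1.64-fold higher), the chaperone gene ATOX1 855 and 1397 (1.63-fold higher) and the copper and zinc superoxide dismutase gene SOD1 1763 and 2828 (1.60-fold higher). SLC31A2, under the floor in untreated cells, reached a bound just past 1.5-fold higher, and SCO2, which serves cytochrome oxidase, was 1.26-fold lower.

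Of 12 iron handling genes 8 were measured, with a median of 0.24. At least 1.5-fold higher were 3 of the 8, where 12.7% of all measured genes were. The 0 at least 2-fold higher and 0 past 1.5-fold lower lie near the shares over all measured genes (3.77% and 15.5%). ACO1, which encodes the iron regulatory protein IRP1, had 783 and 1553 (1.98-fold higher). The mitochondrial iron importer gene SLC25A28 was 1.72-fold higher and the ferritin autophagy receptor gene NCOA4 1.54-fold higher. HFE, a regulator of iron uptake, was 1.39-fold lower on the brightest of its 13 probe sets. These disagreed in direction, with log2 ratios from -0.71 on 211331_x_at to 0.15 on 211330_s_at.

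Genes otherwise known to respond to heavy metals were not higher as a group. Of 14 listed, 11 were measured, 4 above and 7 below a log2 ratio of 0, with a median of -0.10. GCLC, a subunit of the enzyme that starts glutathione synthesis, had 237 and 476 (2.01-fold higher) and was 1.33-fold higher on its other probe set. The cochaperone gene BAG3 had 875 and 1646 (1.88-fold higher) and the cochaperone gene DNAJB1 784 and 1006 (1.28-fold higher). The haem oxygenase gene HMOX1, a sensitive responder to cadmium, had 223 and 214, and the cystine transporter gene SLC7A11 had 381 and 213, 1.79-fold lower.

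**Figure D4:**
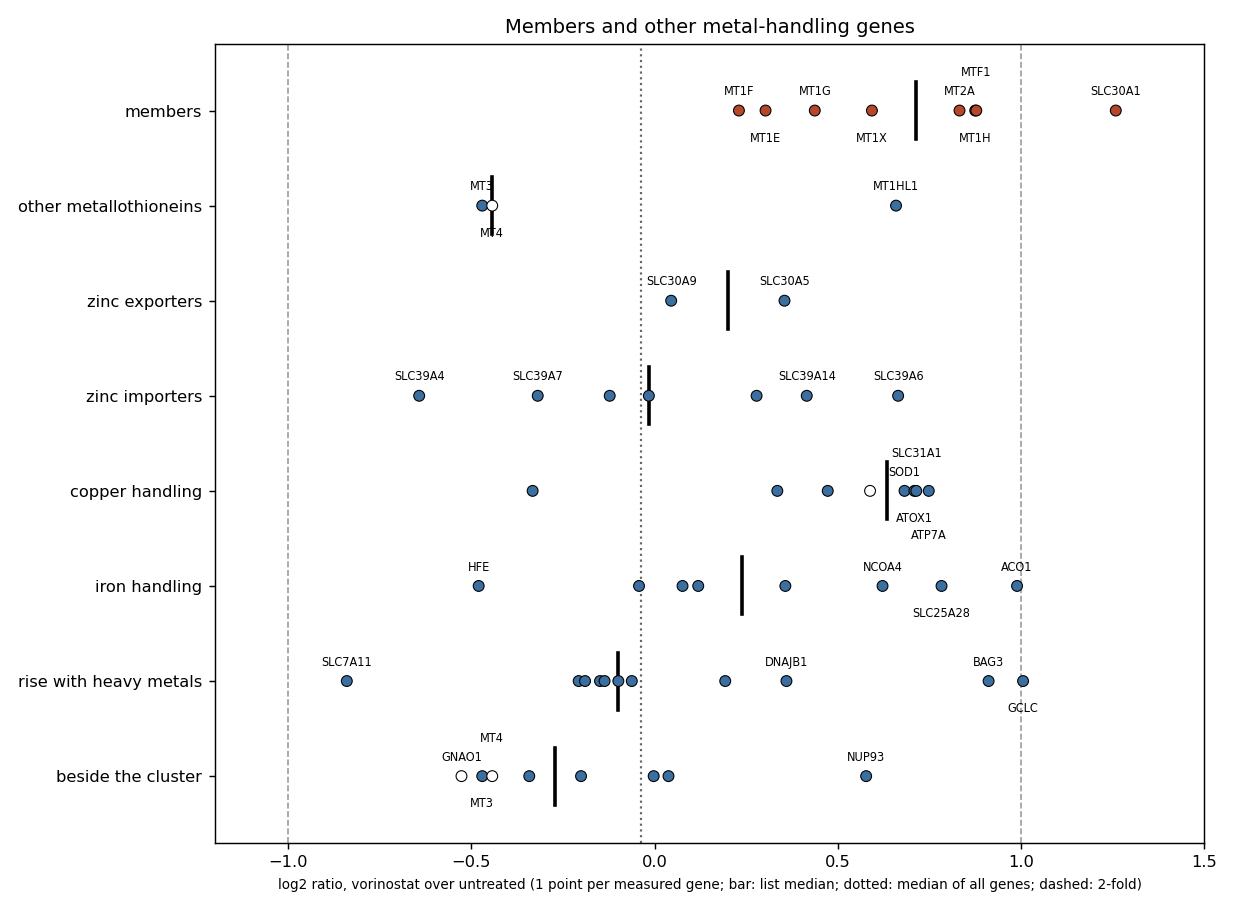
Log2 ratios, vorinostat over untreated, of the measured genes of each list, 1 point per gene, open where 1 array was under the floor and the value is a bound; the genes with the largest ratios are named. The members' median (0.71) and that of the copper genes (0.63) lie farthest above the median of all genes (-0.04, dotted line).

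As a description, measured genes other than the members were grouped by matches in their 250-base window, a grouping made after the data were seen. Of the 8277 measured genes, members included, 6839 had a window. Of the 31 with 4 or more matches, 0 were past 2-fold higher, 4 (12.9%) were past 1.5-fold higher, and 4 were past 1.5-fold lower. Of the 4568 with 0 matches 3.9% were at least 2-fold and 12.4% at least 1.5-fold higher. The median log2 ratios were -0.03 and -0.04. The shares past 1.5-fold higher lay close to each other and to that of all measured genes (12.7%). A group of 31 genes is too small to show a share of a few percent at 2-fold, and the members were left out. A link between the motif and the ratios was not tested.

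Of the markers of the labelled cell type, the Hodgkin cell antigen gene TNFRSF8 had signals of 10777 and 3228 and IRF4, a transcription factor gene of these cells, 12032 and 14699. All 4 Hodgkin and all 4 T cell markers were above the floor on at least 1 array. So were 4 of 4 fibroblast markers (highest signal 276, COL1A1), 2 of 4 monocyte markers (highest 207, CSF1R; CD14 and LYZ were under the floor), 2 of 4 epithelial markers (highest 108, KRT8) and 1 of 3 markers of liver and kidney, organs rich in metallothioneins (highest 69.9). Of 3 B cell markers 0 were above it. The summed signal was 552 untreated and 577 treated for the fibroblast markers, 347 and 246 for the monocyte ones, 162 and 220 for the epithelial ones and 84.1 and 116 for those of liver and kidney. The summed signal of the 4 Hodgkin markers was 30036 untreated and 20418 treated, and that of the 4 T cell markers 6095 and 2774. Bright genes carried these sums, TNFRSF8 and BATF3 (6200 and 1825) among the Hodgkin markers and CD247 (4463 and 942) among the T cell ones. In each of these 2 lists 3 markers were lower and 1 was higher, IRF4 and GATA3 (1174 and 1565). Marker levels thus differed between the arrays too, and their part in the metallothionein ratios was not tested.

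**Figure D5:**
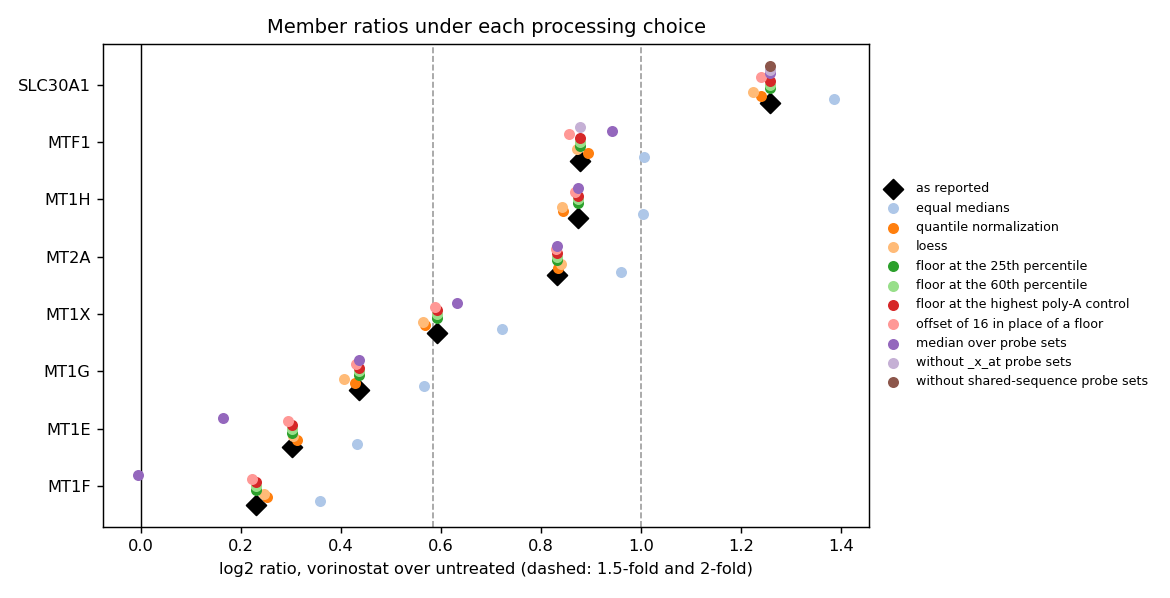
Log2 ratio of each member gene as reported (diamond) and under the alternative ways of processing in which it was measured (circles). Ratios of SLC30A1 stay above 2-fold (dashed line at 1), MT1X moves across 1.5-fold, and MT1F falls to -0.01 when the median over its probe sets is taken.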

How the data were processed

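Values were the intensity per probe set that the authors deposited for 1 untreated and 1 vorinostat array, made with MAS5, as stated per the submitters' processing notes, with no version or detection calls given in the sources used here. Trimmed at both ends, the mean signal came to 500.2 on each array, so the deposited scaling was kept. MAS5 scales each array by a single factor.

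Of 22283 probe sets, 68 controls were left out of all ratios. Symbols came from the platform annotation (19065 probe sets with 1 symbol, 1043 with several, 2107 not listed). Signals were floored at the 40th percentile, log2 ratios are vorinostat over untreated, and a gene is represented by its brightest probe set. No test was run, for lack of replicates; genes past 2-fold and past 1.5-fold were counted. The ratio script was tested on simulated data. Members, gene lists and rules were chosen with earlier results of these data known. All 8 members were named, and in each list up to 4 measured genes with the largest ratios, those past 2-fold, and a few more chosen after their values were seen. Work was done in Python 3.11.15 with pandas 2.3.3 and, for loess, statsmodels 0.14.6.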

Additional observations from a re-analysis of the deposited data

How the results depend on the processing

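All 8 members kept a log2 ratio above 0 under equal medians, quantile normalization, loess, the 3 other floors and the offset of 16; MT1F fell to -0.01 with the median over probe sets. Under equal medians 3 members were at least 2-fold higher, against 1 as reported. MT1X fell under 1.5-fold after quantile normalization and after loess (log2 ratios of 0.57 and 0.57), which left 4 members past it. Without _x_at probe sets MTF1 and SLC30A1 alone were measured, with 2 members past 1.5-fold and a median of 1.07, and without all shared-sequence probe sets SLC30A1 alone, with 1 member past 1.5-fold and a median of 1.26; no metallothionein value could be given in either. Of all genes, 689 were at least 2-fold lower with the floor at the 25th percentile, 251 at the 60th, 707 with the offset (which gave 471 higher) and 250 without shared-sequence probe sets, against 424 lower and 312 higher as reported; these settings change how many genes are measured. Among the other gene lists, the median of the other metallothioneins went from -0.44 to 0.66 when floored at the 60th percentile and to -0.19 with the offset, that of the genes beside the cluster from -0.27 to 0.02 when floored at the 60th percentile, and that of the zinc exporters from 0.20 to -0.02 with the floor at the 25th percentile, -0.04 with the median over probe sets and -0.10 with the offset. The medians of the zinc importers and of the heavy metal genes lay near 0 and changed sign too, between -0.07 and 0.15 and between -0.14 and 0.03. A ratio or median was taken as moved when it shifted by more than the SD of the spike-ins, 0.17, and a count when it changed by more than 1.5 times. No paired analysis was possible because each group held 1 array. The lack of replicate arrays limits all ratios, and the dim MT1G probe set 210472_at, MT1M and 4 of the SLC30A genes gave no ratio at this signal.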
